A study of Mus musculus with 13 samples.

Results

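The insulin-like growth factor system was followed through 10 genes of the 45777 in the count table: the ligands Igf1 and Igf2, the receptors Igf1r, Igf2r and Insr, the receptor substrates Irs1 and Irs2, and the binding proteins Igfbp2, Igfbp3 and Igfbp5. They were taken by gene symbol and not by a cut on measured values, but earlier results of these data were known when they were chosen. All 10 passed the low-count filter in every comparison. RNA came from whole hippocampi of 13 mice, collected on day 3. The 4 groups were SE-cKO (n = 3, Nestin-Cre::Lin28aloxP/loxP, pilocarpine), SE-WT (n = 3, Nestin-Cre::Lin28a+/+, pilocarpine), sham-cKO (n = 4, Nestin-Cre::Lin28aloxP/loxP, saline) and sham-WT (n = 3, Nestin-Cre::Lin28a+/+, saline). Pilocarpine, a muscarinic agonist that triggers status epilepticus (SE), was given at 260 mg/kg to males and 280 mg/kg to females. All groups carried the Nestin-Cre transgene, so no comparison here separates its own effect. The mice were 6 weeks old at SE induction, were on a C57BL/6N background, and those made to seize also received scopolamine methyl nitrate and terbutaline. They were further given diazepam to end the seizures and dextrose solution for recovery, and were kept in a warmed incubator. Only mice that showed SE were used. Whether sham mice received any of these treatments is not stated in the sources used here. Nestin-Cre acts in neural progenitors and the cells derived from them, whereas microglia, vessels and meninges come from other lineages. The sex of each mouse is not in the labels.

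IGF-1 and IGF-2 are secreted peptides that bind the IGF-1 receptor, a tyrosine kinase closely related to the insulin receptor. The activated receptors phosphorylate the docking proteins IRS-1 and IRS-2, which pass the signal to PI3 kinase, AKT and mTOR. The IGF-2 receptor (also the cation-independent mannose 6-phosphate receptor) takes IGF-2 up for degradation. IGF binding proteins hold most IGF outside cells, and proteases such as pappalysin and cathepsin D release it. In brain, Igf2 and Igfbp2 transcripts are strong in the choroid plexus and meninges, and IGF-1 is a survival factor for hippocampal neurons. LIN28A binds let-7 precursors and keeps them from being processed, and mRNAs of this pathway, among them that of the IGF-1 receptor, are known let-7 targets.

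The total count per library lay between 59659977 and 84354243. Lin28a itself had 0 counts in 12 of 13 libraries and 3 counts in 1 SE-WT library, so the deletion could not be checked from its transcript. At these depths 3 counts correspond to 0.0362 to 0.0510 CPM (the count scaled to library size), which is the limit that a count of 0 allows. In 3 libraries, genes of neighbouring brain regions stood apart: the summed CPM of 8 striatal genes was 1240 in SE-WT replicate 2 against 46.3 to 103 elsewhere, and that of 8 thalamic genes was 905 in SE-WT replicate 3 and 1591 in sham-cKO replicate 2 against 102 to 192 elsewhere. Choroid plexus genes (12 of 12 in the table, none at 0 throughout a group) summed to 49.8 to 1224 CPM in SE-cKO, 28.8 to 701 in SE-WT, 32.9 to 2869 in sham-cKO and 61.0 to 4734 in sham-WT, so their level varied widely within each group. Microglial genes (12 of 12) summed to 2066 to 3169 CPM in SE-cKO and 1732 to 2346 in SE-WT, against 463 to 498 in sham-cKO and 476 to 522 in sham-WT. Hippocampal granule cell genes (6 of 6) and CA pyramidal genes (5 of 6 in the table) were detected in every group. Of them 4 of 6 and 3 of 5 were called lower in SE-cKO against sham-cKO, beside 8.92% of all genes. In SE-WT against sham-WT 2 of 6 and 2 of 5 were called lower, beside 0.832% of all genes. The granule cell genes summed to 173 to 194 CPM in SE-cKO and 83.0 to 238 in SE-WT, against 277 to 416 in sham-cKO and 292 to 375 in sham-WT. The CA genes summed to 197 to 243 CPM in SE-cKO, against 316 to 536 CPM in sham-cKO. In bulk tissue, fewer cells of a type and less RNA per cell cannot be told apart. The labels give a replicate number but no litter or batch.

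Because LIN28A keeps let-7 precursors from being processed, seed matches of let-7 were sought in the members' 3′ untranslated regions (UTRs). The sequence of let-7a-5p (RefSeq, GRCm38.p6, chr13:48538239-48538260, minus strand) is shown with its seed, bases 2 to 8, in capitals, followed by 7-base perfect seed matches found in members' 3′ UTRs (GENCODE transcripts, GRCm38). The matches printed are not a full list, and a member with none printed is not thereby without one. Each is given with its match in capitals and its flanks in lower case.
let-7a-5p: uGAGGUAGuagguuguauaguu
First match in Igf1r, chr7:68229110-68229139 (+ strand): ttttcaaacatttatCTACCTCactcttgt
Second match in Igf1r, chr7:68233216-68233245 (+ strand): tttgccagagttcatCTACCTCtgggattt
Igf2r, chr17:12683029-12683058 (- strand): cacctgctccgtgccCTACCTCatctctgt
Insr, chr8:3153191-3153220 (- strand): tcttctcagtacagtCTACCTCagtgtctt
Irs2, chr8:10986521-10986550 (- strand): aaaactaccacagtcCTACCTCagttcagg
Igfbp5, chr1:72859672-72859701 (- strand): cttccccaggtcagcCTACCTCccccaaac
The letters searched were CTACCTC, and Igf1r held a pair of matches. Over 21039 protein-coding genes, 7.76% had the same letters in the 3′ UTR, but the members' UTRs are long: among UTRs of like length the share was 39.5% for Igf1r (7267 bases), 24.9% for Insr, 24.1% for Igfbp5, 13.9% for Irs2 and 9.41% for Igf2r. A match is a description of these letters and not a shown site of let-7 binding.

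The 3 members whose transcripts differed after SE in cKO mice are given with the 150 bases before the start site in RefSeq (GRCm38.p6), with 4 kinds of motif searched on both strands in capitals.
Igfbp2, chr1:72824330-72824479 (+ strand): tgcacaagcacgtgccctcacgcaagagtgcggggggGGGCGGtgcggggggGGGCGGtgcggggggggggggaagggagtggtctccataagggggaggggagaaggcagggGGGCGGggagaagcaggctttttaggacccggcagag
Igfbp3, chr11:7213924-7214073 (- strand): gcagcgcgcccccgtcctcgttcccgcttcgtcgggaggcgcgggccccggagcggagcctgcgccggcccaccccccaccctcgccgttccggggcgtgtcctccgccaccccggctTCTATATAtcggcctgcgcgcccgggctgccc
Igfbp5, chr1:72874866-72875015 (- strand): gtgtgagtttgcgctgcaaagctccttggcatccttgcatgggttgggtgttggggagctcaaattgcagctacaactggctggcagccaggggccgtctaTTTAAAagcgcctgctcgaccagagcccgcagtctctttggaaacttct
The motifs were the GC box (GGGCGG, or CCGCCC on the other strand, in 28.6% of 32851 promoters of this length), the TATA box (TATANA, 13.3%), the letters TTTAAA (6.75%) and the AP-1 site (TGANTCA, 4.24%). Igfbp2 held 3 GC boxes, at 113, 98 and 37 bases before the start. Igfbp3 held overlapping TATA matches beginning 32 bases before the start, and Igfbp5 held TTTAAA at 49 bases before it. None of the 3 windows held an AP-1 match, and no motif was shared by them. Of the other members with an entry, Igf2, Igf1r, Igf2r and Irs2 held GC boxes, Igf1 held 1 AP-1 match and Irs1 held none of the 4. The windows of Igf1 and Igf2 lie inside the annotated spans of these genes. The start site used for Igf1 is 2043 bases from the start of its GENCODE transcript. Insr had no entry. Igfbp2 (chr1:72824480-72852474) and Igfbp5 (chr1:72858065-72874865) lie 5.6 kb apart on opposite strands, pointing toward each other. Igfbp3 is at chr11:7206086-7215498 on the minus strand, so the start site used for its window lies inside the annotated gene span. In the same annotation Igf1 is at chr10:87858265-87937047, Igf1r at chr7:67952257-68233668, Igf2r at chr17:12682406-12769706, Insr at chr8:3150922-3279649, Irs1 at chr1:82233105-82291439 and Irs2 at chr8:10984681-11008929.

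Transcript levels were compared between genes on the deposited TPM scale, which corrects for length. Igfbp2 was the most abundant member in each group by mean TPM, with 148 ± 81.1 in SE-cKO, 85.0 ± 38.2 in SE-WT, 36.2 ± 19.5 in sham-cKO and 43.0 ± 21.4 in sham-WT (SD). Igf1 was the least abundant, at 2.39 ± 0.262, 2.17 ± 1.09, 2.01 ± 0.472 and 1.21 ± 0.301 TPM in the same groups. Igfbp2 overlapped the next member, Igfbp5, in sham-cKO only. Igfbp5 followed Igfbp2 in SE-WT and both sham groups and was above Igf2r without overlap in SE-WT and sham-cKO, but not in sham-WT. In SE-cKO the place after Igfbp2 by mean TPM went to Igfbp3 (39.8 ± 27.0), which did not differ from Igfbp5 (36.5 ± 5.64) beyond their spread and was above it in 1 of 3 libraries. Igfbp3 ranked 8 of 10 in sham-cKO (8.21 ± 2.98 TPM) and 7 of 10 in sham-WT (7.22 ± 1.89 TPM). In the middle of the order Igf2r, Irs2, Insr and Igf1r lay between 7.04 and 16.2 TPM on average, and neighbouring members overlapped there in most groups. Igf2 ranked 9 of 10 in SE-cKO (4.38 ± 2.65 TPM) and SE-WT (5.48 ± 4.38 TPM), against rank 5 in sham-cKO (11.1 ± 4.01 TPM) and rank 4 in sham-WT (10.7 ± 3.72 TPM).

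**Figure D1:**
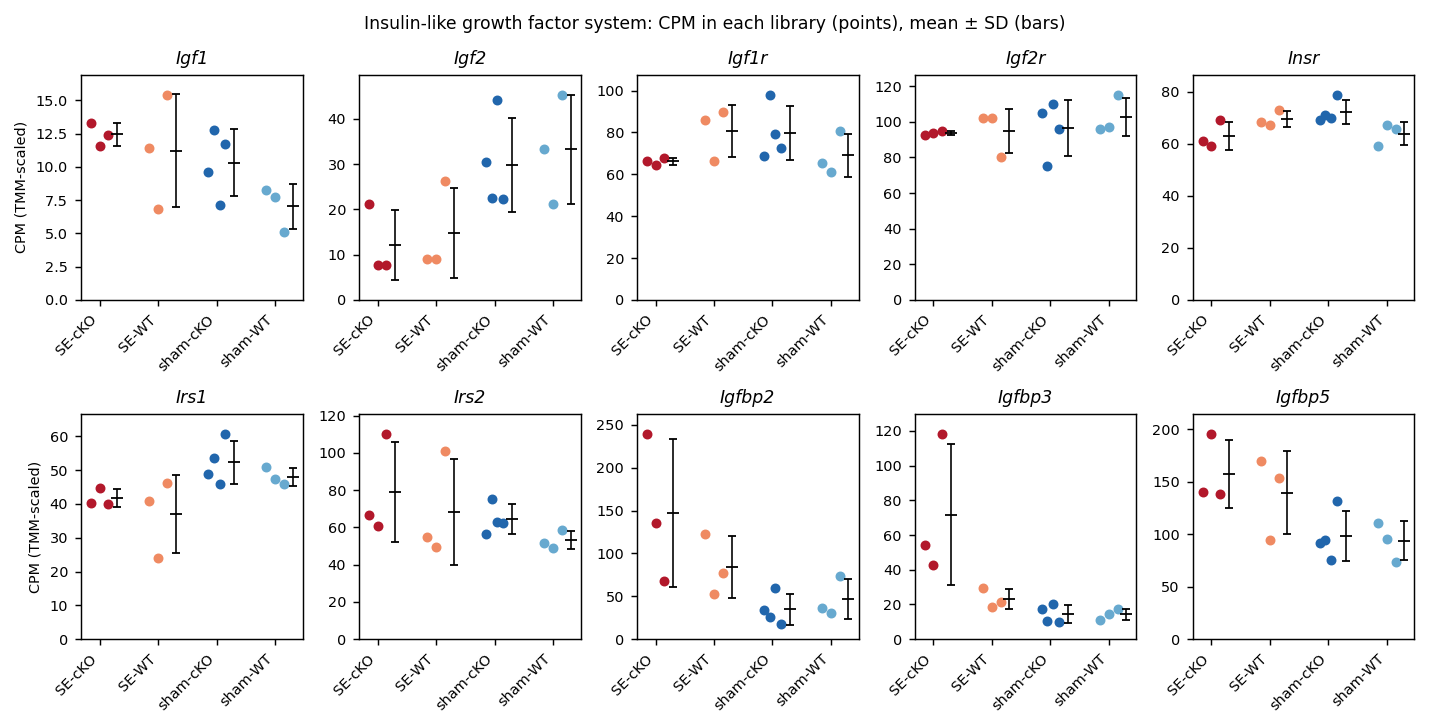
Level of each of the 10 members in every library (CPM with TMM scaling, linear axis from 0, points) with the mean ± SD of each group (bars), groups from left to right SE-cKO, SE-WT, sham-cKO and sham-WT. Igfbp3 in SE-cKO (42.6 to 118 CPM) lies above every library of the other groups, and the panels of Igf2r and Insr are nearly flat.

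After SE in LIN28A-cKO mice, the 3 binding proteins among the members rose. Igfbp2, Igfbp3 and Igfbp5 were higher in SE-cKO than in sham-cKO (edgeR quasi-likelihood test, Benjamini-Hochberg over 21307 genes, threshold 0.05), and no member was called lower. That is 3 of 10 members higher, beside 13.8% of all genes, and 0 of 10 lower, beside 8.92%. The groups did not overlap in CPM for 6 of 10 members, beside 35.7% of all genes. Of the libraries high in thalamic or striatal genes, only sham-cKO replicate 2 belongs to this comparison. With it left out of the fit of these groups, edgeR still called Igfbp2 and Igfbp3 higher. Igfbp5 and Igf2 were not called there. The median log2 fold change of the members was 0.16, beside 0.00 for all genes. Marker genes of other cells were higher in the same comparison: 5 of 9 macrophage genes were called higher (summed 98.6 to 240 CPM in SE-cKO against 31.8 to 43.2 in sham-cKO), as were 5 of 10 endothelial genes (163 to 332 against 154 to 208 CPM), and their part in the binding protein results was not tested.

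Igfbp3, which carries most circulating IGF in blood and also restrains growth in a cell-autonomous way, was at 54.2, 42.6 and 118 CPM in SE-cKO, against 17.3, 10.7, 20.4 and 9.89 CPM in sham-cKO. Every SE-cKO library lay above every sham-cKO library, and replicate 3 stood highest. The log2 fold change was 2.34 (SE 0.38), or 5.05-fold (95% interval 2.76 to 9.24), with an adjusted p of 0.00319 by edgeR. Igfbp3 was called in each of the 17 alternatives tried for this comparison, with log2 fold changes of 1.80 to 2.60.

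Igfbp2, a binding protein made by astrocytes and choroid plexus, was at 239, 135 and 68.1 CPM in SE-cKO, against 34.5, 26.2, 60.3 and 18.2 CPM in sham-cKO. The groups did not overlap, but the lowest SE-cKO library was close to the highest sham-cKO library. Its log2 fold change was 2.15 (SE 0.49), or 4.42-fold (95% interval 2.04 to 9.60), with an adjusted p of 0.0146 by edgeR. With each library left out in turn, the call was lost only without SE-cKO replicate 1, the highest library, where the log2 fold change was 1.62 and the adjusted p 0.0501 by edgeR. That library and sham-cKO replicate 3 were also the richest of their groups in choroid plexus genes, with summed CPM of 1224 and 2869. When the choroid plexus level was added as a covariate, with the 4 groups fitted together, Igfbp2 had a log2 fold change of 2.05 and an adjusted p of 0.00575 by edgeR. Of 8 astrocyte genes, 4 were called higher in the same comparison (Gfap, Vim, Aqp4 and Aldh1l1) and 1 lower (Slc1a2). Their sum was 10018 to 10526 CPM in SE-cKO against 4520 to 6018 in sham-cKO, with Gfap at 4191 to 4883 against 231 to 318 CPM. Across the 13 libraries the deviations of Igfbp2 from its group means had r = -0.01 with those of astrocyte genes. The r values were 0.60 for macrophage, 0.57 for leptomeningeal, 0.54 for choroid plexus and 0.50 for mural genes. Leptomeningeal genes summed to 331, 211 and 162 CPM in SE-cKO, against 107 to 235 in sham-cKO. The part of astrocyte, macrophage, leptomeningeal and mural genes in the Igfbp2 result was not tested.

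Igfbp5, the most conserved of the family and a matrix-bound binding protein, was at 140, 195 and 138 CPM in SE-cKO, against 98.2 ± 24.2 CPM in sham-cKO (SD, n = 4, lowest 75.2 CPM). The lowest SE-cKO library lay just above the highest sham-cKO library, replicate 4. The log2 fold change was 0.74 (SE 0.20), or 1.67-fold (95% interval 1.21 to 2.30), with an adjusted p of 0.0325 by edgeR. This call was the least stable: it was lost without sham-cKO replicates 1, 2 or 3, or without SE-cKO replicate 2, in turn, where the log2 fold changes were 0.68, 0.70, 0.63 and 0.56 and the adjusted p from edgeR lay between 0.0697 and 0.121.

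**Figure D2:**
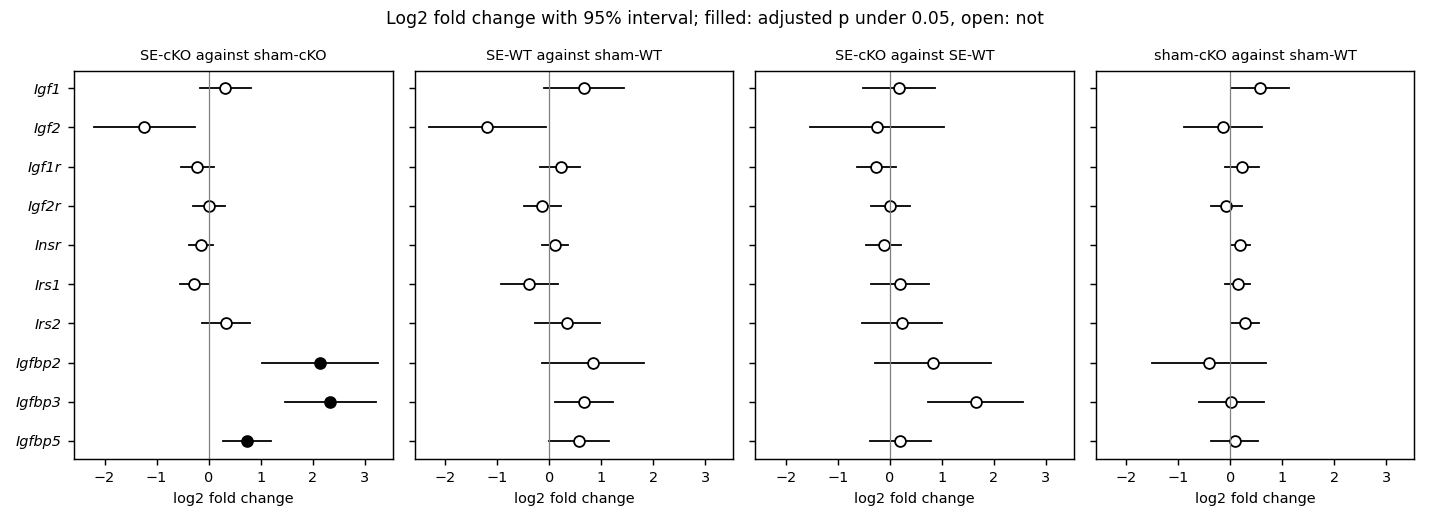
Log2 fold change (horizontal axis) of each member with its 95% interval in 4 comparisons, filled where the edgeR adjusted p was under 0.05. Only Igfbp2, Igfbp3 and Igfbp5 in SE-cKO against sham-cKO are filled, at 2.15, 2.34 and 0.74, and Igf2 lies on the negative side in both comparisons of SE with sham.

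Igf2, the fetal growth ligand that the adult brain makes mainly in the choroid plexus and meninges, was at 21.1, 7.73 and 7.62 CPM in SE-cKO, against 30.4, 22.5, 44.3 and 22.3 CPM in sham-cKO. The groups did not overlap, and replicate 1 stood above the other SE-cKO libraries. The log2 fold change was -1.24 (SE 0.43), or 0.424-fold (95% interval 0.216 to 0.831), which did not pass the threshold (adjusted p = 0.0707 by edgeR). In LIN28A WT mice Igf2 was at 8.99, 8.99 and 26.2 CPM in SE-WT, against 33.3, 21.2 and 45.3 CPM in sham-WT. These groups overlapped through SE-WT replicate 3, and the log2 fold change was -1.19 (SE 0.47, adjusted p = 0.214 by edgeR). In both genotypes the SE library with the highest Igf2 was also the richest in choroid plexus genes, with summed CPM of 1224 (SE-cKO replicate 1) and 701 (SE-WT replicate 3). Without SE-cKO replicate 1 the log2 fold change in cKO mice was -1.90 (adjusted p = 0.00731 by edgeR), and without SE-WT replicate 3 that in WT mice was -1.87 (adjusted p = 0.0309 by edgeR). These were the largest falls with a library left out. Leaving out each library in turn gave -1.90 to -0.96 in cKO mice, called in 1 of 7 fits. In WT mice the values were -1.87 to -0.90, called in 1 of 6 fits. With the choroid plexus level as a covariate and the 4 groups fitted together, the values were -1.41 (adjusted p = 0.0241) in cKO and -0.93 (adjusted p = 0.227) in WT mice by edgeR. That fit differs from the fits of each pair of groups in more than the covariate. DESeq2 also called Igf2 lower in cKO mice (log2 fold change -1.25, adjusted p = 0.00769), where it called 29.5% of the genes it adjusted. Across the 13 libraries the deviations of Igf2 from its group means correlated most with those of mural cell genes (r = 0.82). The r values were 0.69 for endothelial, 0.63 for choroid plexus, 0.61 for leptomeningeal, 0.53 for oligodendrocyte and 0.52 for granule cell genes. These are descriptions over libraries that differ in depth and in regional marker genes. Of the endothelial genes, 5 of 10 were called higher in SE-cKO against sham-cKO by edgeR. Mural genes summed to 278 to 431 CPM in SE-cKO against 214 to 263 in sham-cKO. Of these, edgeR called 1 of 9 higher (Tagln, at 99.9 to 130 against 1.52 to 3.75 CPM) and 0 lower. The higher sum was not shared by the list's median log2 level relative to sham. That level overlapped, at -0.21 to 0.54 in SE-cKO and -0.30 to 0.18 in sham-cKO. The mural gene Myh11 was at 8.92, 2.65 and 3.76 CPM in SE-cKO, below every sham-cKO library, although it was not called. Leptomeningeal genes summed to 162 to 331 CPM in SE-cKO against 107 to 235 in sham-cKO, and the part of these lists in the Igf2 result was not tested.

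**Figure D3:**
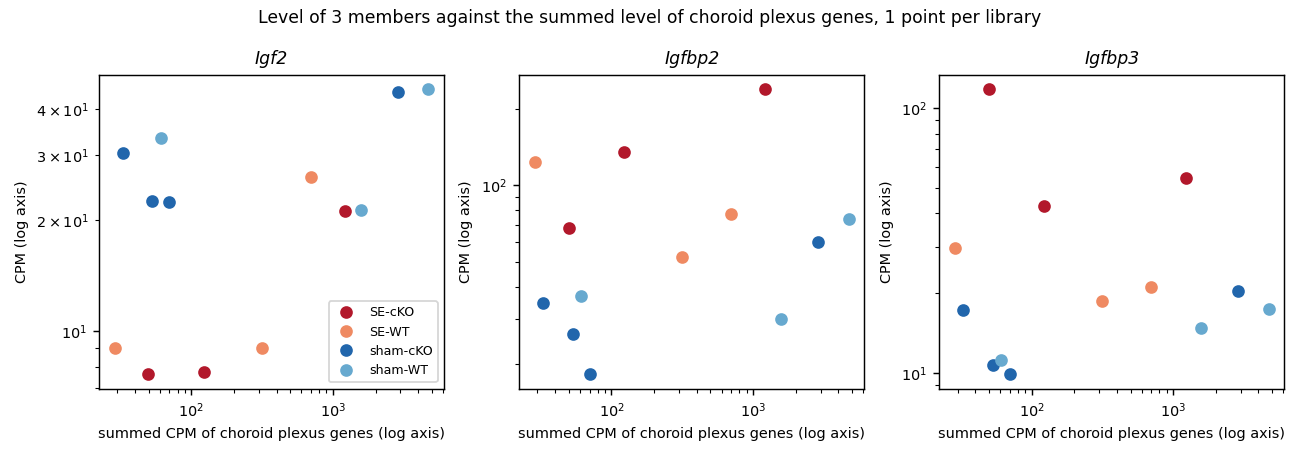
CPM of Igf2, Igfbp2 and Igfbp3 (vertical, log axis) against the summed CPM of 12 choroid plexus genes (horizontal, log axis), 1 point per library, coloured by group. At low choroid plexus levels, the Igf2 points of sham libraries (22.3 to 33.3 CPM) lie above those of SE libraries (7.62 to 8.99 CPM), while Igfbp3 in SE-cKO is high at every choroid plexus level.

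H19, a noncoding RNA of the same imprinted domain, was higher after SE in both genotypes. H19 is expressed from the maternal allele and Igf2 from the paternal one in most tissues, although the choroid plexus and leptomeninges use both Igf2 alleles. H19 (chr7:142575530-142578146) lies 72.6 kb from Igf2 (chr7:142650768-142666816), both on the minus strand. H19 was at 13.4, 7.96 and 17.2 CPM in SE-cKO, against 0.423, 0.157, 0.386 and 0.183 CPM in sham-cKO (log2 fold change 5.50, SE 0.43, adjusted p = 8.89e-05 by edgeR). It was at 10.2, 5.78 and 5.32 CPM in SE-WT, against 0.738, 0.454 and 0.561 CPM in sham-WT (log2 fold change 3.60, SE 0.38, adjusted p = 0.00333 by edgeR). Neither pair of groups overlapped. The ratio of H19 to Igf2 CPM was 0.635, 1.03 and 2.26 in SE-cKO and 1.13, 0.643 and 0.203 in SE-WT, against 0.00698 to 0.0139 in sham-cKO and 0.0124 to 0.0222 in sham-WT. Reads of Igf2 can also come from Igf2os, on the opposite strand, and from the overlapping models Gm49394 and Mir483, since the strand setting of the counting is not given in the sources used here. Igf2os itself had at most 39 counts in any library.

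**Figure D4:**
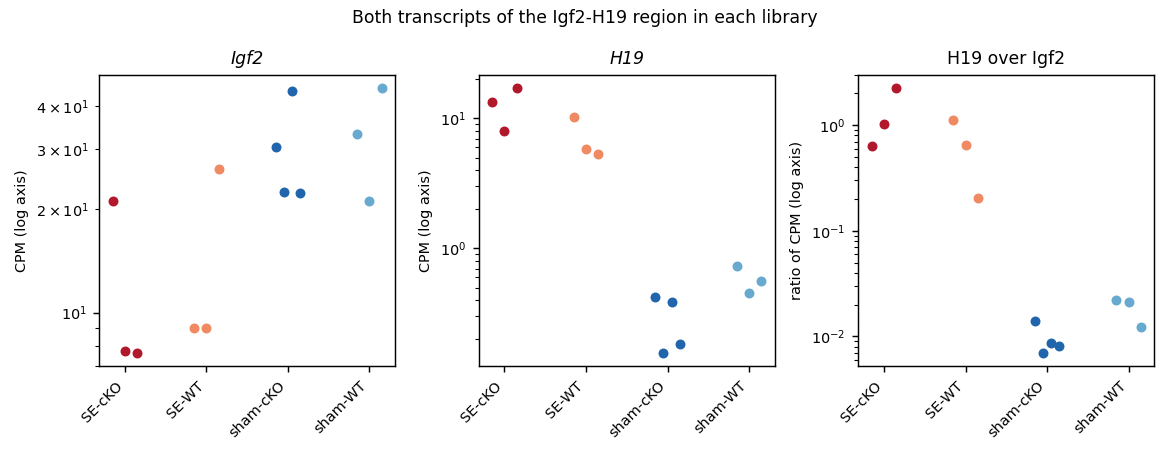
CPM of Igf2 and of H19 in each library, and the ratio of H19 to Igf2 CPM (all on log axes), by group. Every SE library lies at a ratio of 0.203 or more and every sham library at 0.0222 or less.

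None of the 5 receptors and receptor substrates passed the test in SE-cKO against sham-cKO by edgeR or DESeq2, and at an unadjusted p under 0.05 there were 0 of them. In SE-cKO against sham-cKO, Igf1r, the main signalling receptor, had a log2 fold change of -0.22 (95% interval -0.53 to 0.10) and Insr, the insulin receptor, -0.15 (-0.37 to 0.08). Igf1r was at 64.6 to 67.8 CPM in SE-cKO, below all sham-cKO libraries (68.8 to 97.9 CPM), yet did not pass the threshold (adjusted p = 0.309 by edgeR). Igf2r, the clearance receptor, was at 0.01 (-0.31 to 0.32). Irs1 was at 40.4, 44.7 and 40.1 CPM in SE-cKO, against 48.8, 53.7, 46.0 and 60.6 CPM in sham-cKO, without overlap (log2 fold change -0.28, SE 0.12, adjusted p = 0.152 by edgeR). Granule cell genes were lower in the same comparison (173 to 194 CPM in SE-cKO against 277 to 416 in sham-cKO), and Irs1 correlated with them over the 13 libraries (r = 0.83), a description of libraries that share the split into SE and sham. Their part in the Irs1 values was not tested. Irs2 had a log2 fold change of 0.34 (-0.12 to 0.80). Irs2 was at 66.7, 60.7 and 110 CPM in SE-cKO and 54.7, 49.5 and 101 CPM in SE-WT, against 56.4 to 75.5 CPM in sham-cKO and 49.1 to 58.5 CPM in sham-WT. The highest library of each SE group is the one whose title follows another naming pattern than the rest, replicate 3 in both. Igf1 was at 13.3, 11.6 and 12.4 CPM in SE-cKO, against 9.60, 12.8, 7.10 and 11.7 CPM in sham-cKO (log2 fold change 0.32, interval -0.16 to 0.81). Genes on the opposite strand overlap Igf1, Igf2r (Airn), Insr, Irs1 and Irs2 in the annotation, so part of their reads could be shared.

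In LIN28A WT mice no member passed the threshold. edgeR called 0 of 10 members in SE-WT against sham-WT, beside 4.57% of 20803 genes higher and 0.832% lower. At an unadjusted p under 0.05 there were 2 members, Igf2 and Igfbp3, beside 4327 of all genes. DESeq2 and limma voom called 0 members as well. Each had 4 members at an unadjusted p under 0.05, beside 4826 (DESeq2) and 5429 (limma voom) of the 20803 genes. Igfbp3 was at 29.6, 18.7 and 21.2 CPM in SE-WT, against 11.2, 14.8 and 17.5 CPM in sham-WT. It was the 1 member of 10 whose groups did not overlap, beside 28.9% of all genes, with a log2 fold change of 0.67 (SE 0.24, adjusted p = 0.168 by edgeR). Igfbp2 was at 123, 52.3 and 77.5 CPM in SE-WT, against 36.8, 30.1 and 73.6 CPM in sham-WT (log2 fold change 0.84, interval -0.14 to 1.83). Igfbp5 averaged 139 ± 39.5 CPM in SE-WT and 93.7 ± 18.8 CPM in sham-WT (0.57, interval -0.01 to 1.15). In both, the groups overlapped. Igf1, at 11.4, 6.86 and 15.4 CPM in SE-WT against 8.28, 7.73 and 5.09 CPM in sham-WT, had a log2 fold change of 0.67 (interval -0.10 to 1.43). The other 5 members lay between -0.38 (Irs1) and 0.35 (Irs2), and the median of all 10 was 0.28, beside 0.02 for all genes.

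The comparison of both genotypes after SE asks what Lin28a deletion changes in the seizure response. edgeR called 0 of 10 members in SE-cKO against SE-WT, beside 0% of 21126 genes. At an unadjusted p under 0.05 there was 1 member, Igfbp3, beside 2046 of all genes. Igfbp3 was at 54.2, 42.6 and 118 CPM in SE-cKO, against 29.6, 18.7 and 21.2 CPM in SE-WT. Its groups did not overlap, which held for 1 of 10 members beside 15.0% of all genes. The log2 fold change was 1.65 (SE 0.40), or 3.13-fold (95% interval 1.66 to 5.93), with an adjusted p of 0.320 by edgeR. DESeq2 called it (log2 fold change 1.63, adjusted p = 0.00600), along with 3.15% of the 16972 genes it adjusted. The adjusted p over all 16 alternatives ranged from 0.00600 to 0.83. The test of the difference itself, the interaction of genotype and SE over all 13 libraries, gave Igfbp3 a log2 value of 1.67 (SE 0.51, adjusted p = 0.200 by edgeR). edgeR called 0 of 10 members there, beside 0.159% of 22596 genes. At an unadjusted p under 0.05 there was 1 member, beside 2834 of all genes. DESeq2 called 1, Igfbp3 (adjusted p = 0.0371), beside 3.97% of 18154 genes. Without SE-cKO replicate 3 the Igfbp3 value was 1.09 in SE-cKO against SE-WT and 1.07 in the interaction. For Igfbp2 the interaction was 1.30 (SE 0.72, adjusted p = 0.487 by edgeR) and for Igfbp5 0.17 (SE 0.34, adjusted p = 0.897 by edgeR), so a different response of these to SE in the 2 genotypes was not shown. The other 9 members lay between -0.26 (Igf1r) and 0.83 (Igfbp2) in SE-cKO against SE-WT.

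Without seizures, the deletion was not followed by a detectable change in any member. edgeR called 0 of 10 in sham-cKO against sham-WT, beside 0% of 20785 genes, and DESeq2 and limma voom called 0 members. Igf1, Insr and Irs2 had an unadjusted p under 0.05, beside 1152 of 20785 genes. Each had an adjusted p of 0.868 by edgeR. Insr was at 69.0, 71.1, 69.8 and 78.7 CPM in sham-cKO, against 59.0, 67.2 and 65.5 CPM in sham-WT. It was the 1 member of 10 whose groups did not overlap, beside 7.70% of all genes, and its log2 fold change was 0.19 (SE 0.08, interval 0.01 to 0.38). Irs2 was at 56.4, 75.5, 62.9 and 62.4 CPM in sham-cKO, against 51.9, 49.1 and 58.5 CPM in sham-WT (0.29, SE 0.12). Igf1 was at 9.60, 12.8, 7.10 and 11.7 CPM in sham-cKO, against 8.28, 7.73 and 5.09 CPM in sham-WT (0.57, SE 0.24). Mature let-7 was not measured.

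Beyond the members, 4 lists of other pathway genes were examined. Of 12 tested genes in the list of other binding proteins and their regulators, 6 were higher and 0 lower in SE-cKO against sham-cKO (list median 1.20, all genes 0.00), beside 13.8% and 8.92% of all genes, and 3 were higher and 0 lower in SE-WT against sham-WT (median 0.51, all genes 0.02), beside 4.57% and 0.832%. Ctsd, the lysosomal protease cathepsin D, averaged 2546 ± 601 CPM in SE-cKO (n = 3) and 349 ± 27.5 CPM in sham-cKO (SD, n = 4), a log2 fold change of 2.92 (SE 0.19), and 2142 ± 305 CPM in SE-WT and 414 ± 34.1 CPM in sham-WT (2.37, SE 0.17). Microglial genes were higher in both comparisons (2066 to 3169 CPM in SE-cKO against 463 to 498 in sham-cKO, and 1732 to 2346 in SE-WT against 476 to 522 in sham-WT), and their part in the Ctsd result was not tested. Igfbp7, a low-affinity IGF binding protein of blood vessels, was at 73.8, 53.7 and 46.8 CPM in SE-cKO, against 7.25 to 11.9 CPM in sham-cKO (2.63, SE 0.22), and at 23.7, 17.8 and 23.4 CPM in SE-WT, against 8.08 to 12.1 CPM in sham-WT (1.03, SE 0.21). Igfbp7 in SE-cKO against SE-WT had a log2 fold change of 1.45 (SE 0.23, adjusted p = 0.236 by edgeR) and an interaction of 1.60 (adjusted p = 0.0891 by edgeR). The plasminogen activators Plat (1.16, SE 0.16) and Plau (2.33, SE 0.26) were higher in SE-cKO than in sham-cKO, and Plat was called in WT mice (0.68, SE 0.11), where Plau was at 1.53 (SE 0.51, adjusted p = 0.144 by edgeR). Pappa, the pappalysin that cleaves binding proteins, and Stc2, a stanniocalcin that inhibits pappalysin, complete the 6 and were named after their values were seen. Pappa was at 5.86, 18.8 and 42.9 CPM in SE-cKO, against 2.90 to 4.26 CPM in sham-cKO. Stc2 was at 0.989, 4.16 and 11.9 CPM in SE-cKO, against 0.672 to 1.65 CPM in sham-cKO. SE-cKO replicate 3 was the highest library for Pappa and Stc2, as it was for Igfbp3.

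Further along the pathway the share of genes called in cKO mice was near that of all genes. In the PI3K, AKT, mTOR and FOXO list, 4 of 32 genes were higher and 3 lower in SE-cKO against sham-cKO (median -0.18). Of all genes, 13.8% were higher and 8.92% lower there. In SE-WT against sham-WT 3 genes of this list were higher and 0 lower (median 0.01), beside 4.57% and 0.832% of all genes. Pik3cg and Pik3r5, the catalytic and adaptor subunits of the PI3 kinase gamma used by immune cells, had log2 fold changes of 2.46 (SE 0.19) and 3.00 (SE 0.25) in cKO mice and of 1.95 (SE 0.20) and 2.35 (SE 0.28) in WT mice. Microglial genes were higher in the same comparisons (2066 to 3169 CPM in SE-cKO against 463 to 498 in sham-cKO), and their part in these results was not tested. Eif4ebp1, a translational brake downstream of mTOR, was higher in both genotypes (2.50, SE 0.28, in cKO and 1.64, SE 0.36, in WT). Inppl1, an inositol phosphatase (1.22, SE 0.18), is the other higher gene in cKO mice and was named after its values were seen. Mtor (-0.56, SE 0.10) and Rictor (-0.41, SE 0.10), named after their values were seen, were among the genes called lower in cKO mice. Among other ligands, receptors and adaptors, 11 genes were tested in cKO mice. Shc1, an adaptor of activated receptors, was higher (1.35, SE 0.19). Sos1 (-0.52, SE 0.11) and Grb10 (-0.47, SE 0.14), an imprinted inhibitor of both receptors, were lower. Over all genes 13.8% were higher and 8.92% lower. In WT mice edgeR called 0 of 12, beside 4.57% of all genes higher and 0.832% lower. At an unadjusted p under 0.05 there were 2, beside 4327 of 20803 genes, and DESeq2 called 2. In the list of IGF2 mRNA-binding proteins and imprinted transcripts, 3 of 7 were higher in cKO mice (H19, Igf2bp3 and Igf2bp2). In WT mice 2 of 7 were higher (H19 and Igf2bp3). Over all genes 13.8% were higher in cKO mice and 4.57% in WT mice. Igf2bp3, which binds Igf2 mRNA and is a let-7 target, had 84, 60 and 22 counts in SE-cKO, against 2, 3, 0 and 3 counts in sham-cKO, and 45, 44 and 58 counts in SE-WT, against 6, 6 and 1 in sham-WT. In SE-cKO against SE-WT edgeR called 0 of 61 tested genes of the 4 lists, beside 0% of all genes. At an unadjusted p under 0.05 there were 12, beside 2046 of 21126 genes, and DESeq2 called 5, beside 3.15%. In sham-cKO against sham-WT edgeR called 0 of 62, beside 0%. At that p there were 3, beside 1152 of 20785 genes, and DESeq2 called 0, beside 17 genes. In the interaction edgeR called 0 of 64, beside 0.159%. At that p there were 15, beside 2834 of 22596 genes, and DESeq2 called 5, beside 3.97%.

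**Figure D5:**
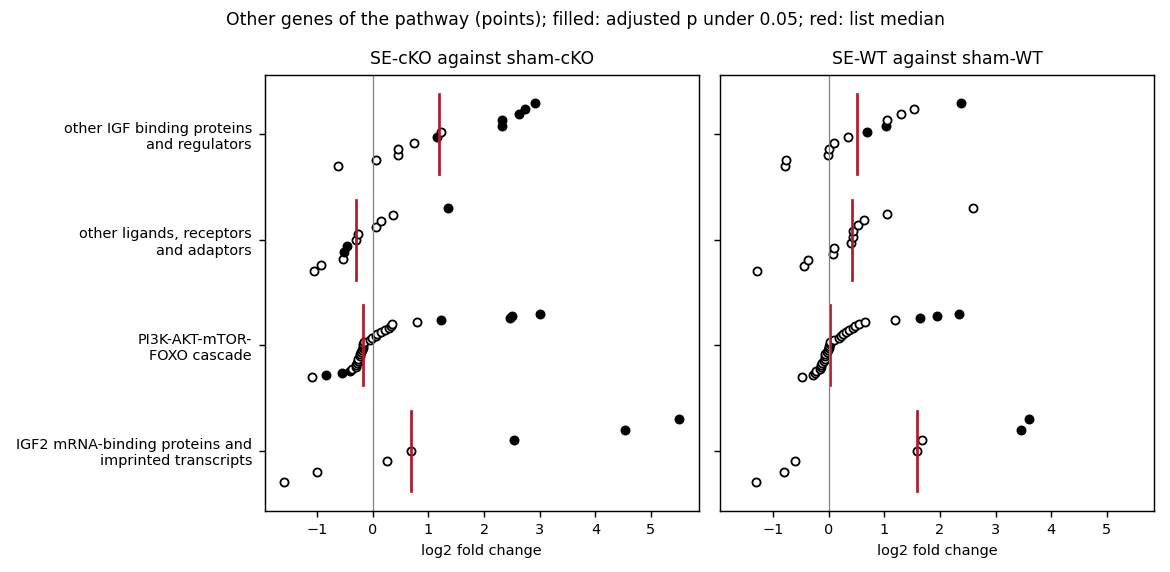
Log2 fold change (horizontal axis) of the tested genes in 4 lists of other pathway genes (rows), in SE-cKO against sham-cKO (left) and SE-WT against sham-WT (right), filled where the edgeR adjusted p was under 0.05, with a red line at the list median. The list of other binding proteins and regulators has its median at 1.20 on the left and 0.51 on the right, and H19 is the rightmost point of each panel.

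For Igf1, Igf2 and the 3 binding proteins, the 3 genes of most similar pattern among 14000 are given, by Pearson correlation of log2 CPM over the 13 libraries. These libraries share the split into SE and sham, and r is given as a description. Igfbp3 was most like Thbs1, which encodes thrombospondin 1 (r = 0.96), Adamts1, a secreted metalloprotease (r = 0.95), and Angptl4, an inhibitor of lipoprotein lipase (r = 0.95). For Igfbp2 the nearest genes were Psme1, a proteasome activator subunit (r = 0.95), Ehbp1l1 (r = 0.95) and Tagap (r = 0.94). Igfbp5 was nearest to Wdr76 (r = 0.94), Masp1, a complement-activating protease (r = 0.93), and Mindy1 (r = 0.92). Igf2 was nearest to Usf1, a transcription factor (r = 0.94), Slc25a29 (r = 0.94) and Myh11, the smooth muscle myosin (r = 0.93). Igf1 had the lowest likeness of these 5 members, to Mmgt1 (r = 0.87), Dcaf12 (r = 0.86) and E2f1 (r = 0.86). Within groups, with the group means removed, the correlations of these 15 genes with their members lay between 0.78 and 0.98.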

How the data were processed

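RNA of 13 mouse hippocampi was sequenced from stranded total RNA libraries. Per the submitters' notes, reads were demultiplexed with bcl2fastq 2.20.0, trimmed with Trimmomatic, aligned to mm10 with HISAT2 2.1.0 and quantified with StringTie 2.1.3b. The deposited table holds read counts, TPM and FPKM values per gene that the authors computed, and FPKM was not used. The strand setting of the counting is not given in the sources used here, and the study names no test for these counts.

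Counts were tested with edgeR 4.0.16 (R 4.3.3) by the robust quasi-likelihood test, with filterByExpr (minimum count 10, minimum total 15), TMM scaling and Benjamini-Hochberg adjustment over all genes tested, threshold 0.05. Each pair of groups was fitted alone, and the interaction over all 13 libraries. CPM values are TMM-scaled, with a prior count of 2 on the log2 scale. limma 3.58.1 and DESeq2 1.42.0 were alternatives, besides another scaling, no filter, 1 fit of all groups, a replicate block, the title style, the Xist level as a stand-in for sex, 3 libraries left out, and each library left out in turn. The choroid plexus covariate was added after the data were seen. The code was tested on simulated data.

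The 10 members and all gene lists were chosen with earlier results of these data known. Named genes were all members, up to 4 called genes of smallest p in each list, and the 3 genes most correlated with each of Igf1, Igf2, Igfbp2, Igfbp3 and Igfbp5 with a mean CPM of at least 1, without predicted genes and small RNAs. Gene positions come from RefSeq (GRCm38.p6, all 10 gene IDs matched, promoters for 9). For the 3′ UTRs, 1 GENCODE transcript per gene was used. Some items that the rule on named genes or the sequence search returned are not reported here. Depth intervals cover counting error only. With 3 or 4 mice per group, p-values measure the spread between these mice.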

Additional observations from a re-analysis of the deposited data

How the results depend on the processing

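Over the 5 comparisons, 85 alternatives gave 850 values for the 10 members: 775 kept direction and side of the threshold, 6 lost a call, 8 gained one and 61 changed sign. No value that changed sign was called, the lowest adjusted p among them being 0.520 and the largest size 0.61. In SE-cKO against sham-cKO the number of members called lay between 2 and 4 of 10. The label numbers do not pair the mice: the correlation of deviations of same-numbered libraries ran from -0.08 to 0.29. With the replicate block, 2 members were called in SE-cKO against sham-cKO (Igfbp2 was not, log2 fold change 1.87, adjusted p = 0.0915), Igfbp5 in sham-cKO against sham-WT was -0.08, and over all genes 2458 were called in place of 4838 (SE-cKO against sham-cKO), 728 in place of 1124 (SE-WT against sham-WT) and 0 in place of 36 (interaction). DESeq2 called 1 member, Igfbp3, in SE-cKO against SE-WT and 1 in the interaction, and over all genes 6265, 2692 (SE-WT against sham-WT), 535, 17 (sham-cKO against sham-WT) and 720. With title style as a term 1 member was called in SE-WT against sham-WT, Igf2 (-1.88), and leaving out libraries in turn gave 0 to 1. Without the 3 libraries with raised thalamic or striatal genes, 1 of 7 genes in the list of IGF2 mRNA-binding proteins was higher in WT mice in place of 2, and 2 of 13 other ligands, receptors and adaptors were higher in cKO mice in place of 1. The cause of these differences was not tested.

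Small values that changed sign were as follows. In SE-WT against sham-WT, Irs2 was -0.02 with title style and -0.01 to 0.54 leaving out libraries in turn, and Igf2r was 0.00 without the 3 libraries with raised thalamic or striatal genes and -0.19 to 0.00 in turn. In SE-cKO against sham-cKO, Igf2r was -0.04 with limma voom, -0.02 with no filter, -0.11 without the 3 libraries and -0.12 to 0.08 in turn. In SE-cKO against SE-WT, Igf2r was -0.01 with DESeq2, -0.03 with voom and -0.01 with RLE size factors. Without the 3 libraries, which leaves 1 SE-WT library assumed to vary like the other groups, Igf2 was 0.44, Igf2r -0.11 and Igfbp5 -0.10. In turn, the ranges were -0.09 to 0.45 (Igf1), -0.92 to 0.43 (Igf2, 0.43 without SE-WT replicate 3), -0.12 to 0.06 (Igf2r), -0.04 to 0.37 (Irs1), -0.08 to 0.60 (Irs2) and -0.01 to 0.36 (Igfbp5). In sham-cKO against sham-WT, Igf2 was 0.10 with voom, Igfbp5 -0.02 with the Xist level and Igf2r 0.00 without the 3 libraries. In turn, the ranges were -0.40 to 0.14 (Igf2), -0.15 to 0.02 (Igf2r), -0.82 to 0.07 (Igfbp2), -0.19 to 0.17 (Igfbp3) and -0.09 to 0.23 (Igfbp5). In the interaction, Irs2 was 0.05 with voom, 0.01 with title style, 0.09 with the Xist level and 0.36 without the 3 libraries. Igf2 was 0.12 with title style, 0.18 with the Xist level and 0.49 without the 3 libraries, Igf1 was 0.07 with the Xist level, and without the 3 libraries Igf2r was -0.11, Irs1 -0.06 and Igfbp5 -0.18. In turn, the ranges were -0.74 to 0.61 (Igf2), -0.01 to 0.20 (Igf2r), -0.16 to 0.26 (Irs1), -0.36 to 0.34 (Irs2) and -0.08 to 0.34 (Igfbp5). Ranking members by median in place of mean TPM moved 4 ranks in SE-cKO, 2 in SE-WT, 2 in sham-cKO and 0 in sham-WT.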

Other observations

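Within groups, with the group means removed, several members varied together across the 13 libraries. Igf1 followed Irs1 (r = 0.82) and Igfbp5 (r = 0.72) and ran against Igf2r (r = -0.80), and Irs1 followed Igfbp5 (r = 0.84). Over the same libraries Igf2r ran against thalamic genes (r = -0.89) and Irs1 against striatal genes (r = -0.89). SE-WT replicate 2, the library high in striatal genes, had the lowest Irs1 of all libraries (24.0 CPM), and sham-cKO replicate 2, the one highest in thalamic genes, had the lowest Igf2r (75.0 CPM). These correlations are descriptions over libraries that differ in regional marker genes. Irs2 ran against microglial genes within groups (r = -0.89), whereas r was 0.22 with the group means kept. Replicate 3 of each SE group, with the other title pattern, had the highest Irs2 of its group (101 CPM in SE-WT, 110 CPM in SE-cKO). The same libraries had the lowest microglial sums of their groups (1732 and 2066 CPM). Cited2, a transcriptional coregulator, named after its value was seen, had the pattern most like that of Irs2 over all groups (r = 0.94).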
